A study of Homo sapiens with 8 samples.

Results

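The HES and HEY genes include the best known direct targets of Notch signalling, and NRARP is another. HES1, HES2, HES4, HES5, HES6, HES7, HEY1, HEY2 and HEYL were followed together with NRARP, 10 of the 20007 protein-coding genes in the annotation, by taking every peak of acetylated lysine 27 on histone H3 (H3K27ac) in each gene body and the 50 kb on either side. Peaks of the 4 H3K27ac libraries that touched were merged into regions, and these windows held 53 of the 15752 regions found in the whole series.

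The cells were pancreatic progenitors (PPs) derived from the established line MEL1 of human embryonic stem cells, which the study's methods give as MEL1 INS GFP/W, with a GFP reporter in the insulin gene INS that all groups shared. All were grown in EF6, a DMEM medium containing B27, EGF, bFGF and 616452, a TGFβ receptor inhibitor, so the controls carried these factors too. For 7 days the PPs received DMSO, the solvent, or I-BET151 at 1 μM, a BET bromodomain inhibitor, and chromatin immunoprecipitation followed by sequencing (ChIP-seq) for H3K27ac was done in 2 libraries of each group. The 4 input libraries, made from chromatin without immunoprecipitation, entered only through the background that the peak caller took from them. The replicates came from 1 cell line, and the labels do not say whether they were separate cultures, so the spread between them may be technical.

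When a Notch receptor is cleaved, its intracellular domain joins the DNA-binding protein RBPJ and switches on a small group of genes. Most HES and HEY genes encode basic helix-loop-helix repressors that recruit co-repressors to DNA, whereas HES6 can oppose HES1 and NRARP encodes a small ankyrin-repeat protein that feeds back on the Notch complex. In the developing pancreas HES1 keeps progenitors from turning on NEUROG3, the gene that starts endocrine differentiation. H3K27ac marks active promoters and enhancers, and BET proteins read such acetylated lysines.

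The depth worked out from the lists was 7.76 to 9.84 M ChIP reads per library, and the lists held 12312 to 14248 peaks. The labelled cell type was compared with its markers. A promoter peak was called in all 4 libraries at 9 of 10 PP markers (not at PTF1A) and at 0 of 6 endocrine, 0 of 4 hepatic, 0 of 4 pluripotent and 0 of 4 neural markers. Of 4 mesenchymal markers PDGFRB had one, while COL3A1 and TWIST1 had no peak in their windows.

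RBPJ recognises the letters GTGGGAA. In the 300 bases around the RefSeq start (250 before and 50 after) these letters, on either strand, occurred in the promoters of 5 of the 9 members matched in the RefSeq table, namely HES1, HES4, HES5, HEY2 and HEYL, and in 6.25% of 35116 promoters. HES5 and HEY2 held 2 matches each. A match is a description of letters and not of binding. The 250 bases before the start are shown for a pair of genes with H3K27ac peaks within 3 kb of the start (HES1 and HEY2) and for a pair with no peak within 3 kb of it (HES5 and HEYL), 5′ to 3′ along the gene, with the match in capitals (TTCCCAC on the opposite strand). They are RefSeq sequences on hg38, at chr3:194135898-194136147 on the plus strand, chr6:125749382-125749631 on the plus strand, chr1:2530264-2530513 on the minus strand and chr1:39639644-39639893 on the minus strand.
HES1: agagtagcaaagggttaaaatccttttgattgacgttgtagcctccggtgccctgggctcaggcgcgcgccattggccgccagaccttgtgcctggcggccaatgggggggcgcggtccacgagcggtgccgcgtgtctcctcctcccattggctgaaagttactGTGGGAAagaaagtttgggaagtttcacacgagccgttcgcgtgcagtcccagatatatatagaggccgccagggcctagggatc
HEY2: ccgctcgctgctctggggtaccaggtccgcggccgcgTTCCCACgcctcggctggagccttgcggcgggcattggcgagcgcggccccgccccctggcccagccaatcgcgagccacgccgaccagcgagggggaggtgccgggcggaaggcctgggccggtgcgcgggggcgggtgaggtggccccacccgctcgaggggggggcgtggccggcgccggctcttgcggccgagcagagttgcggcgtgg
HES5: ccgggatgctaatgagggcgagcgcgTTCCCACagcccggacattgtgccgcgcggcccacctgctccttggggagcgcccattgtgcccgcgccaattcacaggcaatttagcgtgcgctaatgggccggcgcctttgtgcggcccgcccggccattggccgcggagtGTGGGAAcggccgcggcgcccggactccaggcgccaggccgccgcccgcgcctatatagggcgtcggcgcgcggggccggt
HEYL: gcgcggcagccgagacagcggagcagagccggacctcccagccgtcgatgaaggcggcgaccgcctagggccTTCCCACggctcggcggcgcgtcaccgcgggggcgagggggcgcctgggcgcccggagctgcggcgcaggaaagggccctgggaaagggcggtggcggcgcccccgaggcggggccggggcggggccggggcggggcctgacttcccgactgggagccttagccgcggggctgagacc
The first base of the match lay 85 bases before the start in HES1, and 224 and 81 bases before it in HES5. In HEY2 it lay 213 bases before the start, and a further match began 4 bases before the start and ran past the stretch shown. In HEYL it lay 178 bases before the start. RBPJ letters were therefore present at genes with and without a peak within 3 kb. The HES1 stretch itself lay in a gap between peaks in all 4 libraries. The HEY2 stretch ends at the downstream of its 2 annotated starts, whereas the region at the upstream start gave its promoter height below. The regions that gave the promoter heights of HES1 and HEY2 held 0 matches. Of the other sequences searched on both strands, the N-box (CACNAG) was in 4 of 9 member promoters (38% of all promoters), the SOX motif (ACAATG) in 3 (10.8%), the class C site (CACGCG) that HES and HEY proteins can bind in 2 (11.4%) and the TATA box (letters TATAAA) in 2 (11.5%). The E-box with the letters CACGTG (7.26% of all promoters), the GATA motif with AGATAA (10.3%), the FOXA motif with TGTTTAC (3.42%) and the AP-1 motif with TGANTCA (7.71%) were in 0 of 9; none of these letters is contained in another, though copies can overlap in a promoter.

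H3K27ac at the promoters was higher in I-BET151 at HES1, HEY1 and HEY2 and overlapped between the groups at HES4 and NRARP. The promoter value is the summit height of the highest peak within 3 kb of any annotated start of the gene, in ChIP reads per M ChIP reads of the library (RPM). Of the 10 members, 5 had such a peak in all 4 libraries, a class that held 45.6% of all protein-coding genes. HES6 had one in 3 libraries, and HES2, HES5, HES7 and HEYL had none in any library, as did 45.3% of all genes. In bulk chromatin, more cells with the mark and more of the mark per cell cannot be told apart.

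At HES1, the main Notch effector in PPs, the promoter summit height was 34.3 and 32.4 RPM in DMSO replicates 1 and 2 and 46.3 and 46.7 in I-BET151 replicates 1 and 2. These heights rested on 273, 319, 359 and 375 reads in that order. Both I-BET151 libraries lay above both DMSO libraries, a ratio of 1.39 (log2 difference 0.48).

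At HEY1, a HES relative that can pair with HES1, the height was 34.2 and 30.1 RPM in DMSO and 47.2 and 44.4 in I-BET151. The groups did not overlap, and the ratio was 1.43 (log2 difference 0.51).

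At HEY2, known as a repressor in vessels and heart, the height was 34.0 and 28.4 RPM in DMSO and 51.4 and 51.5 in I-BET151. This was the largest ratio among the 5 members, 1.65 (log2 difference 0.73).

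At HES4, which resembles HES1 and has no mouse counterpart, the height was 49.6 and 41.6 RPM in DMSO and 45.1 and 45.0 in I-BET151. The I-BET151 libraries fell between the DMSO libraries (log2 difference −0.01).

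At NRARP the height was low in every library, 8.54 and 9.86 RPM in DMSO and 7.99 and 10.2 in I-BET151. The groups overlapped (log2 difference −0.02). The highest peak was not the same in every library, and in I-BET151 replicate 2 its summit lay 1089 bases inside the gene. With summits within 1 kb only, the log2 difference was −0.16 and the groups did not overlap, with I-BET151 lower.

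At HES6 no promoter peak was called in DMSO replicate 1, and the height was 14.2 in DMSO replicate 2 and 20.0 and 21.3 in I-BET151. Because 1 library is missing, no ratio is given.

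**Figure D1:**
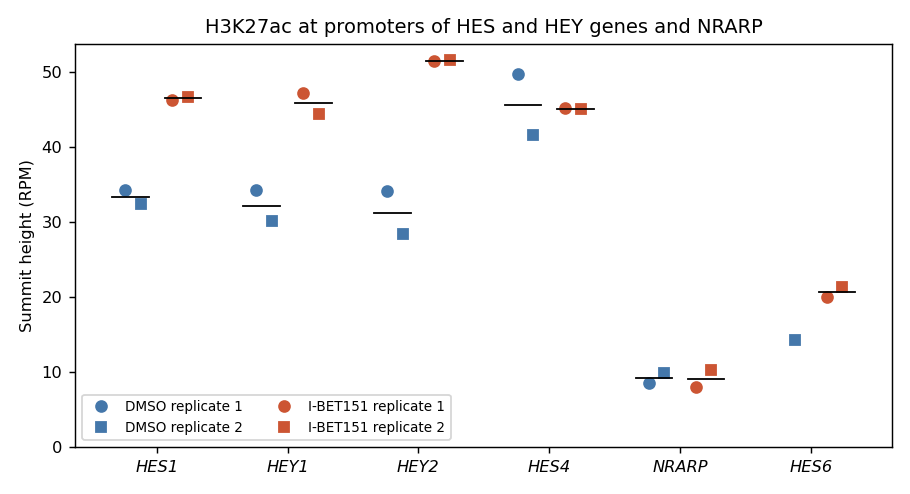
Summit height (RPM, y axis) of the highest H3K27ac peak within 3 kb of a start of each of 6 genes (x axis). Blue points are DMSO and orange points I-BET151 libraries, circles replicate 1 and squares replicate 2, and the lines are means of 2 libraries; at HES1, HEY1 and HEY2 both orange points lie above both blue points, and HES6 has no point for DMSO replicate 1.

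With 2 libraries per group the two-sided exact permutation test has 6 assignments and cannot give a p below 0.33, the value for each separation of the groups reported here. The background is therefore given beside each count. Promoter height was higher in I-BET151 at 3 of the 5 members, against 26.7% of 8907 promoters, and lower at 0 of 5, against 31%. After each height was divided by its library's median over these promoters, an alternative chosen after seeing the data, the same 3 members were higher and 0 lower, while the background moved to 44.5% higher and 28.6% lower. The median log2 difference was 0.48 over the 5 members and −0.01 over all 8907 promoters, of which the middle 90% ran from −0.50 to 0.39. HES1, HEY1 and HEY2 lay above that range. In fold enrichment over the local input, as the authors' peak caller gave it, the upstream HES1 region that gave the height was at 7.52 and 5.93 in DMSO and 10.1 and 10.1 in I-BET151. The HEY1 region that gave the height was at 5.83 and 5.50 in DMSO and 8.49 and 13.0 in I-BET151. The HEY2 region was at 6.97 and 6.39 in DMSO and 7.86 and 10.6 in I-BET151. The groups did not overlap by fold at these 3 regions. By the highest fold of any peak within 3 kb, HES1 was at 9.60 and 7.48 in DMSO and 10.1 and 10.1 in I-BET151. By that measure HES1, HES4, HEY1 and HEY2 were higher in I-BET151 and NRARP overlapped. Over 9130 promoters, 24.7% were higher and 16% lower by the same measure.

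**Figure D2:**
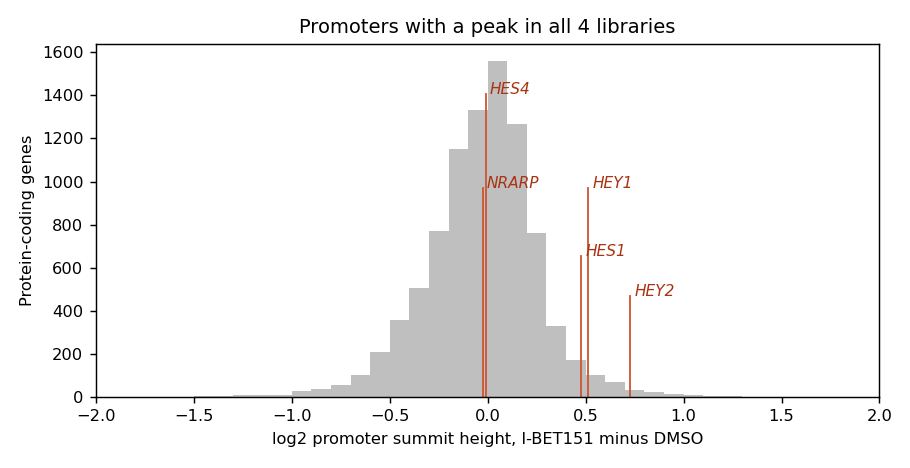
Number of protein-coding genes (y axis) by log2 difference in promoter summit height, I-BET151 minus DMSO (x axis, bins 0.1 wide), for the 8907 promoters with a resolved peak in all 4 libraries. Vertical lines mark the 5 members, and their heights serve only to separate the names: NRARP and HES4 lie at −0.02 and −0.01, and HES1, HEY1 and HEY2 lie at 0.48, 0.51 and 0.73.

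HES1 stood alone in its window, with 0 other protein-coding genes, and its 8 regions all had HES1 as the nearest coding start. Its annotated start at 194136148 on chromosome 3 lay in a gap between peaks in all 4 libraries. In DMSO replicates 1 and 2 the peak upstream ended 1258 and 1141 bases before the start, and in I-BET151 replicates 1 and 2 it ended 721 and 783 bases before it. The upstream region, chr3:194133871-194135427, thus reached closer to the start in I-BET151, and its covered length was 995 and 1098 bp with DMSO against 1557 and 1474 bp with I-BET151.

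The region over the HES1 gene body, chr3:194136689-194138358, with its summit in an intron, was at 24.2 and 24.9 RPM in DMSO and at 39.2 and 39.6 in I-BET151 (ratio 1.60). The region just beyond the gene, chr3:194140699-194142107, had heights of 31.7 and 32.0 in DMSO and 43.7 and 45.0 in I-BET151 (ratio 1.39). All 3 regions near the gene were thus higher in height, by ratios of 1.39 to 1.60. By fold the gene-body region overlapped between the groups, with a highest fold of 9.60 and 7.48 in DMSO and 8.00 and 8.19 in I-BET151, while the other two were higher.

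A pair of narrow regions 24.5 and 25.3 kb downstream of the start, outside coding transcripts, were called in every library at low height. The nearer had 4.40 and 4.27 RPM in DMSO and 7.99 in I-BET151 replicate 1, while the height in I-BET151 replicate 2 could not be resolved. The farther had 9.96 in DMSO replicate 2 and 13.7 and 6.97 in I-BET151, and was not resolved in DMSO replicate 1. The I-BET151 values at the farther region lay on both sides of the DMSO value. Upstream, a region 42.8 kb from the start was called in 3 libraries and one 37850 bases from it in I-BET151 replicate 1 alone.

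The region 46.2 kb upstream of HES1, chr3:194089700-194090056, had a peak in each DMSO library and none with I-BET151, and is termed lost. Its heights were 5.28 and 3.76 RPM, among the lowest in these windows, and absence from a list means only that no peak passed the threshold. It was the only lost region nearest to a member's own start, so the 151 bases centred on its summit in the library with the smallest p-value are shown, at chr3:194089869-194090019 of hg38 on the plus strand. The stretch holds no GTGGGAA on either strand.
HES1 region: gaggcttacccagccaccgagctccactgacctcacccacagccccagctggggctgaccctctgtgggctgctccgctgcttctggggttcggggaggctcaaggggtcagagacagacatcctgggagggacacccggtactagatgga

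**Figure D3:**
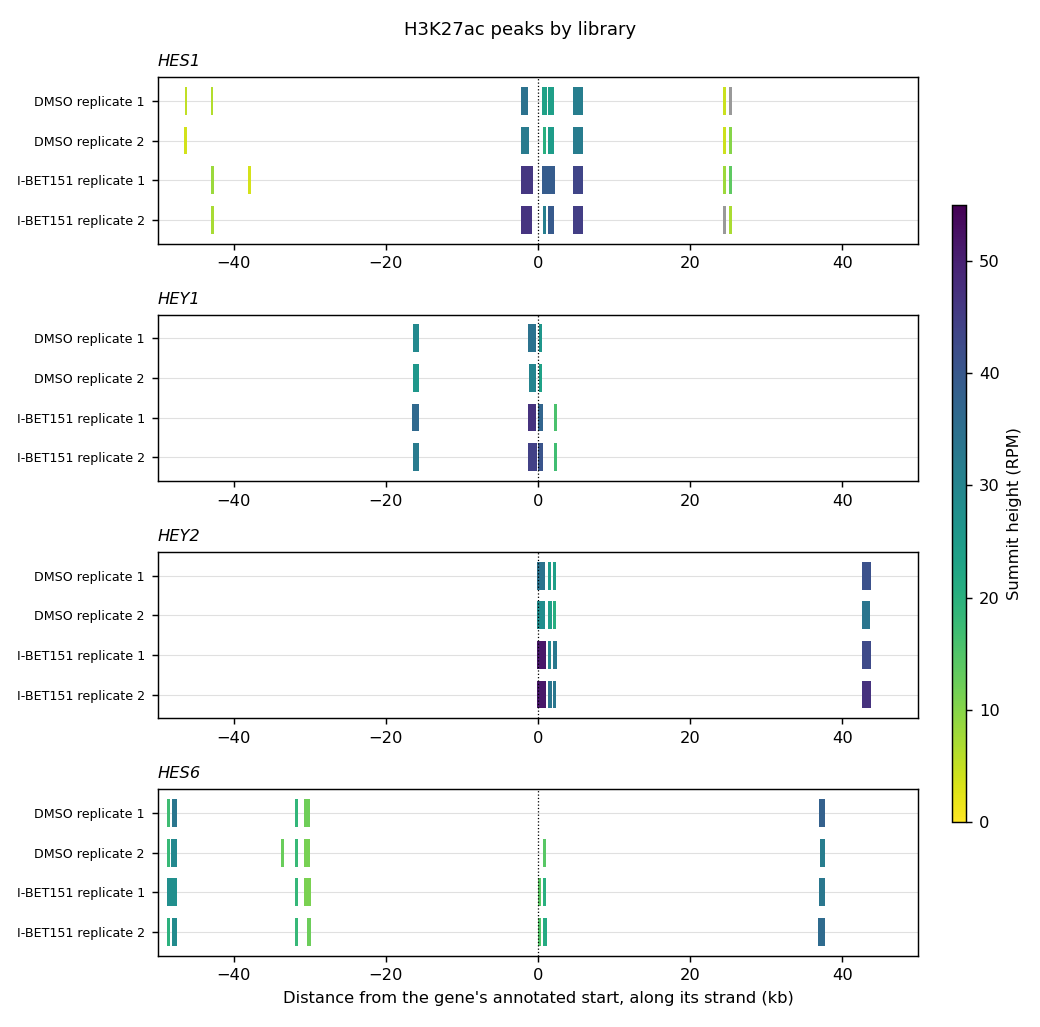
H3K27ac peaks in each library (rows) at HES1, HEY1, HEY2 and HES6, by distance from the gene's annotated start along its strand (x axis, kb; dotted line at the start). Each bar spans a peak, with the narrowest widened to stay visible, and its colour gives the summit height in RPM (grey where it was not resolved); the bars beside the starts of HES1, HEY1 and HEY2 are darker in the I-BET151 rows, and HES6 has bars at its start mainly in those rows.

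HEY1 also stood alone among coding genes, and its 4 regions were all nearest to HEY1. The region at the annotated start, chr8:79767254-79767827, had its summit in an untranslated exon. Its height was 26.0 and 23.3 RPM in DMSO and 37.3 and 40.7 in I-BET151 (ratio 1.58). The region 716 bases upstream, chr8:79768041-79769174, is the one that gave the promoter height above.

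A region 16.2 kb upstream of HEY1, chr8:79783523-79784363, lay outside coding transcripts. Its height was 29.0 and 25.9 in DMSO and 36.4 and 32.3 in I-BET151 (ratio 1.25). The groups did not overlap in height, and the ratio was smaller than at the 2 regions by the start. By fold they overlapped, at 12.7 and 9.50 in DMSO and 8.57 and 9.69 in I-BET151.

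Downstream of the start a narrow region, chr8:79765382-79765715, had a peak in each I-BET151 library and none with DMSO, and is termed gained. Its heights were 15.9 and 16.8 RPM, and its summit lay in a coding exon of HEY1.

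HEY2 has 2 annotated starts, and its window held 1 further coding gene, NCOA7, a nuclear receptor coactivator. The region at the upstream start, chr6:125747510-125748675, gave the promoter height above. The next, chr6:125748974-125749455, had heights of 25.0 and 24.1 RPM in DMSO and 29.4 and 33.7 in I-BET151 (ratio 1.29). The third, chr6:125749619-125750220, at the downstream start, had 24.1 and 20.4 in DMSO and 32.7 and 33.2 in I-BET151 (ratio 1.48). All 3 were higher in I-BET151, and the region nearest to NCOA7 was higher too, at 41.3 and 33.6 in DMSO and 42.7 and 47.2 in I-BET151 (ratio 1.20).

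HES6 differed from the 3 genes above in that its promoter peaks were weak and absent from 1 library. The region in its coding exon, chr2:238239468-238239970, was called in DMSO replicate 2 and in both I-BET151 libraries. The region at the upstream start, chr2:238240281-238240703, was gained, with heights of 13.9 and 14.7 RPM. The 5 other regions of its window lay nearest to PER2, a clock gene, or ILKAP, a phosphatase, and 0 of the 4 with heights in all libraries was higher in I-BET151.

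At HES4 the start lay inside a peak in all 4 libraries. That single region of its own, chr1:998883-1002052, covered 3.13 and 3.17 kb with DMSO against 3.08 and 3.11 kb with I-BET151, the widest of all regions in the 10 windows. The I-BET151 lengths were 0.05 kb shorter on average and did not overlap the DMSO lengths. Its fold enrichment was 7.59 and 8.32 in DMSO and 8.63 and 8.65 in I-BET151, while its height overlapped.

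Around it the acetylated length was lower in I-BET151. All peaks within the HES4 window covered 8.22 and 8.34 kb with DMSO against 5.01 and 5.12 kb with I-BET151, a difference of −3.22 kb. The difference lay at neighbouring genes: 4 regions were lost, 3 nearest to ISG15, an interferon-induced ubiquitin-like protein, and 1 nearest to AGRN, the proteoglycan agrin. A further AGRN region, chr1:1019278-1021825, was called in all libraries and covered 2264 and 2504 bp with DMSO against 1659 and 1632 bp with I-BET151.

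NRARP had 8 regions of its own, most of them weak. The one over its untranslated exon, chr9:137301021-137302213, had heights of 8.29 and 7.93 RPM in DMSO and 7.99 and 10.2 in I-BET151. The region 14.3 kb upstream, in an intron of EXD3, had 14.1 and 11.2 in DMSO and 12.6 and 14.6 in I-BET151. Both overlapped between the groups.

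The other 6 NRARP regions were not called in every library. That just upstream of the start was called in 3 libraries and that 6.5 kb downstream of it in the same 3, with I-BET151 replicate 2 missing, and 3 were called in a single DMSO library. A region 3.2 kb upstream, chr9:137305313-137305944, was gained, with 6.45 and 10.1 RPM in the I-BET151 libraries. As the only gained region outside the exons of a member, it is shown by the 151 bases centred on its summit, chr9:137305353-137305503 of hg38 on the minus strand, read along NRARP. It holds no GTGGGAA on either strand.
NRARP region: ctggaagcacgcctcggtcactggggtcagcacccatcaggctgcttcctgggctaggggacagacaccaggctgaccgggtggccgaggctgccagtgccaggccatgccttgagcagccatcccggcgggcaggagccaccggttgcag

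Over the whole NRARP window the covered length was 7.27 and 10.0 kb with DMSO against 6.30 and 5.40 kb with I-BET151 (difference −2.80 kb). DMSO replicate 2, the deepest library, stood well above the other three. Without it the difference was −1.42 kb, and without DMSO replicate 1 it was −4.19 kb. Of this window's other regions, 2 called in every library were lower in height, at NELFB with a ratio of 0.835 and at TOR4A with a ratio of 0.754, and 1 near TOR4A was lost. By fold the NELFB region overlapped between the groups. The TOR4A region called in every library was higher by fold in I-BET151, at 3.96 and 4.49 in DMSO and 6.37 and 5.71 in I-BET151.

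**Figure D4:**
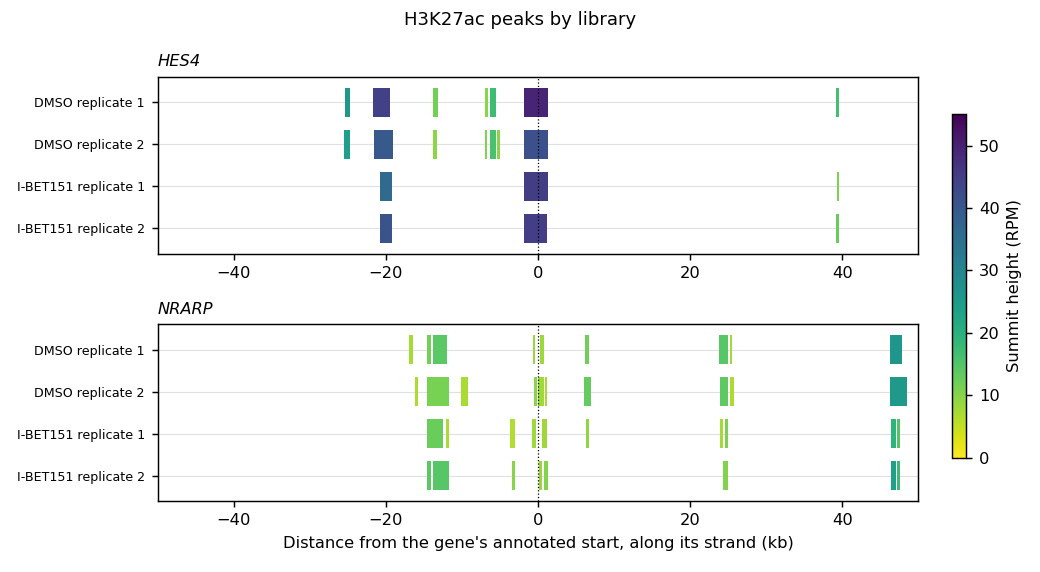
H3K27ac peaks in each library (rows) at HES4 and NRARP, by distance from the gene's annotated start along its strand (x axis, kb; dotted line at the start), with colour for summit height in RPM. At HES4 the bar over the start is alike in all rows while 4 regions between 6.0 and 24.9 kb upstream appear in the DMSO rows alone; at NRARP the bars around the start are pale and their positions vary between libraries.

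HES2, HES5, HES7 and HEYL had 0 peaks nearest to their own starts in any library, so their windows describe other genes. HES5, a Notch target of neural progenitors, had a window covered over 2.87 and 2.78 kb with DMSO against 1.41 and 1.70 kb with I-BET151, with 2 lost regions nearest to PRXL2B, and the nearest peak to its start lay 3613 to 3626 bases away near PANK4. HES7, which oscillates in the segmentation clock, had 2.19 and 2.06 kb with DMSO against 1.91 and 1.70 kb with I-BET151, with 2 lost regions nearest to PER1, another clock gene. HES2 had 0.677 and 0.851 kb with DMSO against 1.23 and 0.581 kb with I-BET151, all at ACOT7. HEYL had 1.17 and 1.13 kb with DMSO against 1.15 and 1.17 kb with I-BET151, all at PABPC4. The groups overlapped at HES2 and HEYL and were lower in I-BET151 at HES5 and HES7.

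At 3 of the windows with promoter peaks the covered length was higher in I-BET151. HES6 had 3.18 and 3.48 kb with DMSO against 4.09 and 3.98 kb with I-BET151 (difference 0.71 kb). HEY1 had 2.34 and 2.23 kb with DMSO against 2.82 and 2.74 kb with I-BET151 (difference 0.49 kb). HEY2 had 3.04 and 3.07 kb with DMSO against 3.38 and 3.24 kb with I-BET151 (difference 0.26 kb). Neither group overlapped the other at these 3 genes, whereas at HES1 they did, at 5.19 and 4.76 kb with DMSO against 6.09 and 5.14 kb with I-BET151 (difference 0.64 kb). The HES1 difference was 0.16 kb without I-BET151 replicate 1 and 0.42 kb without DMSO replicate 2, where the groups still overlapped, and 0.86 kb without DMSO replicate 1 and 1.11 kb without I-BET151 replicate 2, where they did not.

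Covered length was thus higher at 3 of the 10 members (HES6, HEY1 and HEY2), against 12.5% of 15184 coding genes with a peak in their window, and lower at 4 (HES4, HES5, HES7 and NRARP), against 44.4%. The share that was lower is close to that background. Without DMSO replicate 1 the count of higher members was 5, and without I-BET151 replicate 2 it was also 5. A left-out library makes the rule easier to meet, and the matching share of all coding genes was not computed. The mean per window was 3.74 ± 0.18 kb with DMSO against 3.21 ± 0.19 kb with I-BET151 (SD, n = 2), a difference of −0.54 kb, against a mean of −0.27 kb over all these coding genes. The median difference was 0.07 kb over the 10 members and −0.09 kb over all these genes, so the members' mean and median differ in sign.

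When peaks nearest to the members' own starts were taken alone, the mean per window was 1.76 ± 0.13 kb with DMSO against 1.85 ± 0.12 kb with I-BET151 (SD, n = 2). These groups overlapped (difference 0.08 kb). The share of the covered length that belonged to the members' own peaks was 46.2 and 48.0% in DMSO and 57.9 and 57.3% in I-BET151, higher in both I-BET151 libraries.

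**Figure D5:**
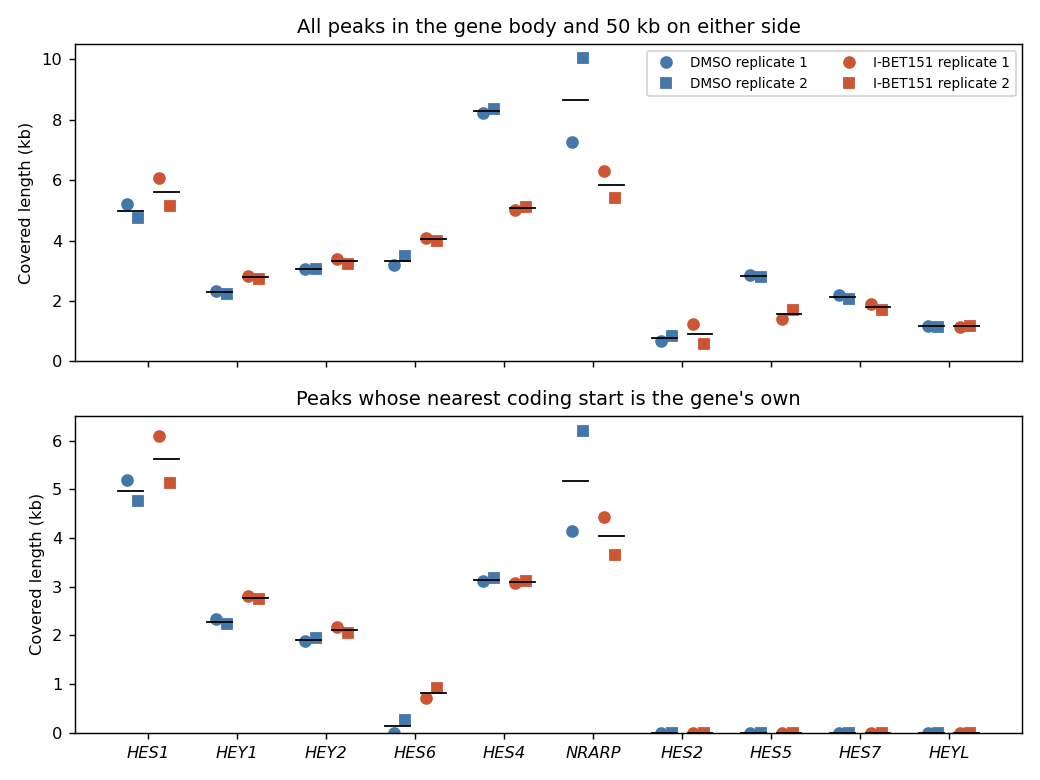
Length covered by H3K27ac peaks (kb, y axes from 0) at each of the 10 genes (x axis), for all peaks in the window (top) and for peaks nearest to the gene's own start (bottom). Blue points are DMSO and orange points I-BET151 libraries, circles replicate 1 and squares replicate 2, and the lines are means of 2 libraries; HES4 is lower in I-BET151 at the top and about 3.1 kb in all libraries at the bottom, and HES2, HES5, HES7 and HEYL are at 0 at the bottom.

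Region by region, the 53 regions of the windows divided into 27 called in all 4 libraries (65.5% of all regions in the series), 3 gained, 10 lost and 13 called in other combinations. The gained share was 5.66%, against 2.81% of all regions, and the lost share 18.9%, against 8.6%. All 3 gained regions (at HES6, HEY1 and NRARP) were nearest to a member, and 9 of the 10 lost regions were nearest to another gene. Without DMSO replicate 1 the gained count was 5, and without I-BET151 replicate 2 it was also 5. With a library left out the rule is easier to meet, and the matching share of all regions was not computed. Of the 26 regions nearest to a member, 12 had a resolved height in all libraries. Of these 9 were higher in I-BET151 and 0 lower, against 29.9% and 31.1% of 10022 regions, and the 9 all belonged to HES1, HEY1 and HEY2. Of the 27 regions nearest to another gene 13 had such heights, and 1 was higher and 5 were lower. Over the library median these counts were 11 higher and 0 lower of 12, and 3 higher and 5 lower of 13, against 45.5% higher and 28.5% lower over all regions. By fold 8 of the 14 member regions called in all libraries were higher and 0 lower, and of the 13 other regions 5 were higher and 1 lower, against 25.4% and 16.3% of 10317 regions. Of the 27 regions nearest to another gene, 33.3% were lost and 0% gained, against 8.6% and 2.81% of all regions. The lost share at neighbouring genes was thus above that of all regions, though these 9 lost regions fell in the HES4, HES5, HES7 and NRARP windows. With only 13 regions, the shares lower in height (5) and higher by fold (5) were near those of all regions, and no direction is read from them.

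The rest of the pathway was read from a list of 50 other Notch genes, 45 of which had a peak in the window. Covered length was higher at 8, lower at 19 and overlapping at 18, with a median difference of −0.05 kb, against the 12.5% higher and 44.4% lower of all coding genes with a peak. The 19 lower genes are a share close to that background. Promoter height was higher at 16 and lower at 7 of the 35 genes with values in all libraries, against 26.7% higher and 31% lower of all promoters. Over the library median 20 were higher and 7 lower, against 44.5% and 28.6%, and by fold 12 were higher and 2 lower, against 24.7% and 16%. By role, promoter height was higher at 5 and lower at 1 of 8 co-repressors, and higher at 3 of 3 nuclear complex genes with values. Of 14 processing and trafficking genes 3 were higher and 4 lower, shares close to the background. Receptors had 1 higher and 0 lower of 2, ligands 1 and 0 of 2, and proneural and related genes 3 and 2 of 6. By fold 4 of 8 co-repressors, 3 of 3 nuclear complex genes and 3 of 14 processing and trafficking genes were higher, with 0, 0 and 2 lower.

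The receptor gene NOTCH1 had the largest gain in covered length of the list, at 4.83 and 5.92 kb with DMSO against 8.21 and 10.2 kb with I-BET151 (difference 3.82 kb), followed by MAML3, a coactivator of the Notch complex (1.80 kb), and the receptor gene NOTCH4 (1.33 kb). NOTCH4 had no promoter peak in any library, so its length lay elsewhere in its window. Covered length was lower at the ligand gene JAG2 (−1.49 kb) and at ID1, an inhibitor of helix-loop-helix partners (−1.32 kb). The RBPJ promoter itself was at 35.2 and 29.6 RPM in DMSO and 36.1 and 37.8 in I-BET151. NEUROG3, NEUROD1, ATOH1 and PTF1A, which HES proteins oppose or partner, had 0 peaks in all 4 libraries.

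Other values moved with the groups. All 9 PP marker promoters with peaks were higher in I-BET151 in height, against 26.7% of all promoters (44.5% over the library median, where the count was also 9), with a median log2 difference of 0.41. By fold 5 of the 9 were higher and 0 lower, against 24.7% and 16%. The PP marker windows together covered 50.6 and 48.4 kb with DMSO against 58.5 and 56.4 kb with I-BET151. The 4 mesenchymal windows covered 3.62 and 4.37 kb with DMSO against 1.94 and 1.82 kb with I-BET151, with lower covered length at COL1A1 and PDGFRB. The endocrine windows covered 6.37 and 6.63 kb with DMSO against 8.08 and 8.52 kb with I-BET151, all in the INS window and away from the INS promoter, and the hepatic windows 0.65 to 0.87 kb. The pluripotent and neural windows covered 0 kb in every library. Their part in the results at the HES and HEY genes was not tested.

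The coding genes whose covered length over the 4 libraries was most like that of HES1 were ZNF689, ENSG00000289491 and SOX12, at Euclidean distances of 0.329, 0.492 and 0.542 kb. For HEY1 they were LAMB1, ATP2B3 and MTOR, at 0.114, 0.180 and 0.211 kb. Within 0.5 kb there were 126 genes for HEY1 and 2 for HES1. Both genes near HES1 had the same DMSO lengths, 5.23 and 4.63 kb, so they may share peaks. The distance was not scaled to covered length, which was longer at HES1 than at HEY1, so these numbers are not directly comparable.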

How the data were processed

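H3K27ac ChIP-seq was analysed in 2 DMSO and 2 I-BET151 libraries, grouped by title. Per the study's methods and the labels, the authors aligned paired reads to hg38 (Bowtie2 2.2.5), removed duplicates and called peaks in each library with MACS2 2.1.2 against input. The deposited lists give intervals and summits, fold enrichment as a ratio, and −log10 p- and q-values. Duplicate removal caps peak height, and a fixed threshold leaves out weak peaks. Whole ChIP reads at 98.5 to 99.0% of summits, and depth, were worked out from fold and p (pseudocount 1; genome size 2.7e+09 bp; checked on simulated peaks) and divided by each library's reads. Regions merge peaks sharing at least 1 bp. Windows follow GENCODE release 44. All members, every own, gained or lost region and the 3 largest rises and falls of the pathway list were to be named; 1 result is not reported here. Members and lists were chosen with earlier results of these data known. Python 3.11.15, numpy 2.4.6, scipy 1.17.1 and pandas 2.3.3 were used. HEY1 is not in the RefSeq promoter table used here. Windows of 10 and 100 kb, other thresholds, each library left out and a replicate block were tried.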

Additional observations from a re-analysis of the deposited data

Results flagged for a closer look

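The input chromatin is not part of the comparisons, but the local background that the peak caller took from it can be worked out from fold and p. At the promoters of HES1, HES4, HEY1, HEY2 and NRARP this background was above its genome-wide level. The value is the highest over all peaks within 3 kb of a start, not a direct count of input reads at the summit. The median over the 5 promoters was 45.7 times that level in DMSO replicate 1, 56.7 times in DMSO replicate 2, 52.5 times in I-BET151 replicate 1 and 48.8 times in I-BET151 replicate 2. The groups overlapped. The part of this background in the promoter heights was not tested.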

How the results depend on the processing

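Of the 69 values recomputed for the summaries, 55 stayed within the spread between replicates or within 1.5 times the count. Part of this was fixed in advance. Leaving out a library cannot move a covered length difference beyond that spread, and the replicate block enters only the counts of higher and lower members. The difference in mean covered length per window changed sign with a 10 kb window, to 0.00645 kb, and was −0.82 kb with a 100 kb window and −0.11 kb when lists were cut to the same number of top-ranked peaks. The count of members with lower covered length was 1 with a 10 kb window and 2 with top-ranked peaks, and the lost regions numbered 2 and 4. Covered length nearest the members' starts differed by 0.29 kb with top-ranked peaks, and HES7 changed sign to 0.22 kb. The causes were not tested. The median log2 promoter height difference was 0.25 within 1 kb, where 4 members remain because HES1 has no summit that close in I-BET151 replicate 1, and 0.25 with fold in place of height. Leaving out each library in turn gave 3 to 5 higher members, 4 to 5 lower members, 4 to 5 gained and 10 to 14 lost regions, −0.67 to −0.41 kb for the mean covered length, −0.01 to 0.18 kb for the own covered length and 0.42 to 0.53 for promoter height; with 3 libraries there are fewer values to separate. Same-numbered libraries did not deviate together (correlation 0.01 over calls and 0.07 over heights). With a replicate block 4 members were higher and 4 lower in covered length. The block entered only these counts, so the other summaries were unchanged by construction and were not tested under it. With 2.67 to 3.04 M input reads per library, weak peaks near the threshold can drop out of a list.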
